A study of Homo sapiens with 6 samples.

Results

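TWIST1, TWIST2, SNAI1, SNAI2, ZEB1 and ZEB2 are 6 genes that encode transcription factors of the mesenchymal state. They were taken by symbol from a table of 16626 genes, and all 6 were found. RNA was sequenced from KGN cells, a steroidogenic human granulosa-like line of tumour origin. The labels give 3 libraries named OE-NC, with the genotype WT, and 3 named OE-SOX3, with the genotype given as overexpression of SOX3. Both groups are the same cell line. The sources used here do not name the vector or the time after its delivery. They also do not say that libraries came from separate cultures, so the spread behind each p-value is that of libraries and may be technical.

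The TWIST, SNAIL and ZEB factors bind E-box sequences in DNA and are known for driving epithelial-mesenchymal transition, in which epithelial cells lose their junctions and gain motility. SNAIL and ZEB proteins are zinc finger repressors that recognise the E-box form CACCTG, and CDH1, the E-cadherin gene, is their best known target. TWIST proteins are basic helix-loop-helix factors that bind DNA as dimers, often with an E protein, and ID proteins sequester E proteins. SNAIL proteins are short-lived and controlled by phosphorylation and ubiquitin ligases, so transcript and protein need not follow each other. Granulosa cells form an epithelium-like layer in the follicle but express mesenchymal genes too, and KGN is a tumour line.

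ZEB1 and ZEB2 are also the best known targets of the microRNA-200 family, and the family is shown here because its sites set the ZEB genes apart from the other genes in sequence. The mature sequences (RefSeq, GRCh38.p14) fall into a group with the seed aauacug and a group with the seed aacacug, seed bases being in capitals:
hsa-miR-200b-3p: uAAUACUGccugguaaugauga
hsa-miR-200c-3p: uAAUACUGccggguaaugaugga
hsa-miR-429: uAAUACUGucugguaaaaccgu
hsa-miR-200a-3p: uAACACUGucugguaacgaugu
hsa-miR-141-3p: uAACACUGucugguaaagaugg
In the longest annotated 3′ untranslated region of each gene (GENCODE 29), ZEB1 held 9 matches to these seeds over 2549 nt and ZEB2 held 9 over 5370 nt. SNAI2 held 1 match over 1203 nt, and TWIST1, TWIST2 and SNAI1 held 0. Of 18765 genes with such a region, 28.7% held a match and 0.592% held 5 or more. A match is a description of the letters. MicroRNAs were not measured in these libraries.

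Promoter windows (RefSeq, 250 bases before to 50 after a transcript start, 300 in all) were matched by symbol and are described for 3 of the genes, TWIST2, ZEB1 and ZEB2. No window matched TWIST1 or SNAI1, and SNAI2 windows are not reported here. They are shown for the ZEB genes because ZEB1 rose and ZEB2 did not pass the test in the results that follow. The letters searched on both strands were the general E-box CANNTG, its form CACCTG, and ACAAAG and ACAATG, which resemble the sites of SOX proteins. CACCTG was in 2 of the 7 ZEB1 windows, in 0 of 1 for ZEB2 and in 0 of 1 for TWIST2, against 20.6% of 35116 windows of all genes. The ZEB1 window printed is the one with the most CACCTG matches, 3, and the ZEB2 window holds 1 CANNTG and 1 ACAAAG. Capitals mark all matches to these motifs:
ZEB1, chr10:31318966-31319265, plus strand: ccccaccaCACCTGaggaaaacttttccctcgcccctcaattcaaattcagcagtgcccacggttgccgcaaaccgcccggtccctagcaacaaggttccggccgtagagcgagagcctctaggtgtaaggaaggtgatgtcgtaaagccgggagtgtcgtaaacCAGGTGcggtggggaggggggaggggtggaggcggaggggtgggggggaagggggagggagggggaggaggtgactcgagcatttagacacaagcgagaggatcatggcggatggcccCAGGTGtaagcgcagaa
ZEB2, chr2:144520070-144520369, minus strand: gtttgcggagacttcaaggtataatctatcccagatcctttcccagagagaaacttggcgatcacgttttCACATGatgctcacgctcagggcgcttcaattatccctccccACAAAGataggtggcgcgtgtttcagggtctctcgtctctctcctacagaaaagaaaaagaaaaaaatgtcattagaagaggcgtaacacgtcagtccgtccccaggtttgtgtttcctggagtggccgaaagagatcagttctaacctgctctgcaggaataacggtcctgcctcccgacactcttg
CANNTG itself occurs in 68.7% of all windows and ACAAAG in 16.1%, and neither shows that a factor binds there.

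Libraries held 18039929 to 20335307 reads, and SOX3 itself was at 0.0254 to 0.142 FPKM in OE-NC and at 13.7 to 14.4 FPKM in OE-SOX3. FPKM are reads per kilobase of gene and scaled to sequencing depth, so levels can be compared between genes. The test was limma on log2(FPKM + 1) with Benjamini-Hochberg adjustment over 11131 genes that reached a mean of 1 FPKM in a group, and "rose" and "fell" mean an adjusted p under 0.05. Changes were widespread: 69.1% of tested genes passed, 32.9% as rises and 36.1% as falls. Rises made up 47.7% of the changed genes, and 59.2% when every library was scaled to the same sum of FPKM, which moved the median log2 fold change of all tested genes from -0.03 to 0.12. OE-NC 1 stood apart from OE-NC 2 and OE-NC 3 in a way that followed gene length, which touches the long ZEB genes and is taken up with them.

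Of the 6 genes, 5 reached the level needed for testing, and 4 of these rose (TWIST1, ZEB1, SNAI2 and TWIST2), 0 fell and 1 (ZEB2) did not pass, where 32.9% of all tested genes rose. TWIST1, ZEB1 and SNAI2 rose by at least 1 log2 unit, as 5.53% of tested genes did. The median log2 fold change of the 5 tested genes was 1.09, beside -0.03 over all tested genes. The mean of SNAI1 was under 1 FPKM in both groups. For all 4 genes that rose every OE-SOX3 library lay above every OE-NC library, which held for 36.5% of tested genes, while 39.5% lay wholly below and the groups of 76.0% did not overlap. Falls of at least 1 log2 unit were seen in 6.58% of tested genes and in 0 of the 5. Since bulk RNA was measured, more RNA per cell and more cells that carry the transcript cannot be told apart.

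**Figure D1:**
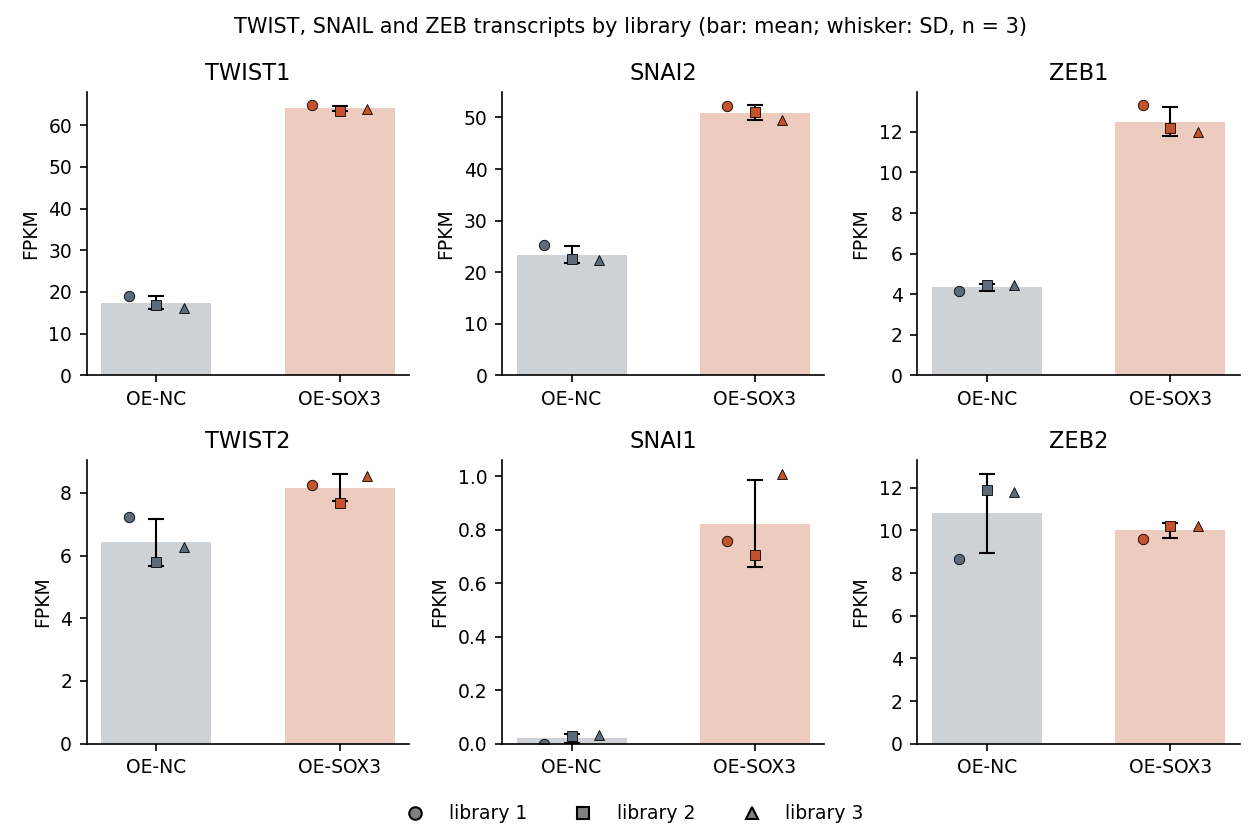
Level of each gene in FPKM (vertical axes, each with its own scale, from 0) in the 3 OE-NC and the 3 OE-SOX3 libraries; bars are means, whiskers SD (n = 3) and symbols single libraries. TWIST1, SNAI2, ZEB1 and SNAI1 are far higher in OE-SOX3, TWIST2 is slightly higher, and the ZEB2 groups overlap because OE-NC 1 lies at 8.64 FPKM.

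TWIST1 encodes a basic helix-loop-helix factor needed for mesoderm and cranial development and known in tumours for promoting invasion. It stood at 19.1, 16.8 and 16.2 FPKM in OE-NC libraries 1, 2 and 3 and at 64.7, 63.4 and 63.8 FPKM in OE-SOX3 libraries 1, 2 and 3. The groups did not overlap, and the OE-SOX3 libraries lay closer together (coefficient of variation 1.06%) than the OE-NC libraries (8.78%). The mean went from 17.4 ± 1.52 FPKM to 64.0 ± 0.681 FPKM (both SD, n = 3), a ratio of 3.69 with a counting interval of 3.49 to 3.90 (95%, exact binomial on recovered reads). TWIST1 rose by a log2 fold change of 1.83 (SE 0.07, limma adjusted p = 2.82e-06), the 77th largest rise of 11131 tested genes. Reads numbered 1647 in OE-NC and 5897 in OE-SOX3 over 3 libraries each. The gene lies on chromosome 7 (19020991 to 19117672, minus strand, GRCh38), and 6.94% of its exon bases overlap an antisense gene. The sources used here do not state whether counting used strand, so antisense reads cannot be told apart.

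TWIST2, its close relative with a role in dermis development, lies on chromosome 2 (238848032 to 238910543, plus strand), and no other annotated exon overlaps it. It stood at 7.24, 5.78 and 6.26 FPKM in OE-NC and at 8.26, 7.69 and 8.55 FPKM in OE-SOX3. The groups did not overlap but were close at OE-NC 1 and OE-SOX3 2. TWIST2 rose from 6.43 ± 0.747 FPKM to 8.17 ± 0.440 FPKM (both SD, n = 3), a log2 fold change of 0.31 (SE 0.09, limma adjusted p = 0.0170). This call was fragile: it was lost without OE-NC 2 (log2 fold change 0.24, limma adjusted p = 0.0556), without OE-SOX3 1 (0.30, limma adjusted p = 0.0569) and without OE-SOX3 3 (0.28, limma adjusted p = 0.0664), in a range of adjusted p over alternatives of 0.000181 to 0.106. The balance between the paralogs moved with TWIST1. The FPKM ratio of TWIST1 to TWIST2 went from 2.70 to 7.84, and the log2 ratio within a library was 1.24 to 1.39 in OE-NC and 2.76 to 2.89 in OE-SOX3. Its difference of 1.52 had p = 0.10 in a two-sided exact permutation test over libraries, the smallest p that 3 against 3 allows.

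SNAI2 encodes SLUG, a zinc finger repressor of the SNAIL family known from neural crest migration. It lies on chromosome 8 (48917604 to 48921740, minus strand), with no overlapping annotated exon. Its OE-NC libraries held 25.3, 22.6 and 22.3 FPKM and its OE-SOX3 libraries 52.3, 51.0 and 49.5 FPKM. The groups were well apart, and library 1 was the highest within each. SNAI2 rose from 23.4 ± 1.64 FPKM to 50.9 ± 1.42 FPKM (both SD, n = 3), a log2 fold change of 1.09 (SE 0.07, limma adjusted p = 1.46e-05) and a read ratio of 2.18 with a counting interval of 2.08 to 2.28.

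SNAI1, the family's founding member in epithelial-mesenchymal transition, was nearly absent from OE-NC. Its libraries held 0, 1 and 1 reads there, or 0, 0.0288 and 0.0311 FPKM, and the 0 reads of OE-NC 1 allow up to 0.0925 FPKM (3 reads). OE-SOX3 libraries held 25, 23 and 31 reads, or 0.758, 0.705 and 1.01 FPKM. Reads per unit depth were 40.7 times higher in OE-SOX3, with a counting interval of 10.9 to 342 that rests on the 2 OE-NC reads. SNAI1 missed the level needed for the main test, with a mean of 0.823 ± 0.162 FPKM (SD, n = 3) in OE-SOX3. With no filter on low values its log2 fold change was 0.83 (limma adjusted p = 8.86e-05), and in limma-voom on recovered reads it was 4.68 (limma adjusted p = 8.01e-05). The pseudocount of 1 FPKM exceeds its mean level, which compresses the first of these. SNAI1 is on chromosome 20 (49982999 to 49988886, plus strand), with no overlapping annotated exon. SNAI2 thus remained the main SNAIL transcript in both groups. It was at 1172 times the FPKM of SNAI1 in OE-NC, a value that rests on 2 SNAI1 reads, and at 61.9 times in OE-SOX3.

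ZEB1 encodes a large zinc finger and homeodomain repressor that recruits CtBP corepressors. It was at 4.16, 4.44 and 4.46 FPKM in OE-NC and at 13.3, 12.2 and 12 FPKM in OE-SOX3. Every OE-SOX3 library was more than 2 times the highest OE-NC library. ZEB1 rose from 4.35 ± 0.169 FPKM to 12.5 ± 0.707 FPKM (both SD, n = 3), a log2 fold change of 1.33 (SE 0.07, limma adjusted p = 5.34e-06) and a read ratio of 2.87 with a counting interval of 2.73 to 3.02. ZEB1 is on chromosome 10 (31318495 to 31529814, plus strand), and 4.23% of its exon bases overlap the antisense gene ZEB1-AS1. Genes of similar length (0.8 to 1.25 times the 8199 bp behind its FPKM) had a median log2 fold change of 0.15, and 97.4% of these 1676 genes had a lower one than ZEB1.

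ZEB2, the ZEB1 paralog known from neural crest and nervous system development, lies on chromosome 2 (144364364 to 144524583, minus strand), with 5.18% of its exon bases overlapping ZEB2-AS1. It held 8.64, 11.9 and 11.8 FPKM in OE-NC and 9.58, 10.2 and 10.2 FPKM in OE-SOX3. The OE-SOX3 libraries lay between OE-NC 1 and the other OE-NC libraries. ZEB2 did not pass (10.8 ± 1.86 against 10 ± 0.370 FPKM, SD, n = 3 per group; log2 fold change -0.09, 95% interval -0.37 to 0.19, limma adjusted p = 0.534). The call changed when OE-NC 1 was left out, where ZEB2 fell with a log2 fold change of -0.23 (limma adjusted p = 0.00186). With the length trend removed from each library ZEB2 fell with -0.26 (limma adjusted p = 0.0177). That removal also takes out the length trend between the groups, so it does not act on OE-NC 1 alone. Scaling every library to the same sum of FPKM gave 0.05 (limma adjusted p = 0.808), below the median of 0.12 that this scaling gives all genes. The adjusted p ranged from 0.00186 to 0.928 over alternatives.

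The length trend in OE-NC 1 can be read beside the genes. Across the 11131 tested genes, its difference from OE-NC 2 and OE-NC 3 on the log2(FPKM + 1) scale had a Spearman correlation of -0.508 with gene length (a description across genes, which are not independent replicates). The short genes lay above 0 in it, TWIST1 by 0.20, TWIST2 by 0.23 and SNAI2 by 0.16, and the long ones below, ZEB1 at -0.08 and ZEB2 at -0.42. For genes within 0.8 to 1.25 times the length of ZEB2 the median difference was -0.16 (quartiles -0.35 and 0.01), and 18.7% of these 1383 genes lay below ZEB2. OE-SOX3 1 showed no such median difference for genes of this length, although across all tested genes it deviated together with OE-NC 1 (correlation 0.486). ZEB2 was lowest in library 1 of each group, at 8.64 FPKM in OE-NC 1 and 9.58 FPKM in OE-SOX3 1. The part of the length trend or of this shared deviation in the ZEB2 result was not tested beyond the alternatives given. The ZEB1, TWIST1 and SNAI2 rises were as large without OE-NC 1 (log2 fold changes of 1.31, 1.89 and 1.15). Fold changes between the groups also followed length, and still did so without OE-NC 1. Genes of similar length to TWIST1 had a median log2 fold change of -0.23, and of -0.17 without OE-NC 1. For genes of similar length to ZEB1 these medians were 0.15 and 0.10, and for those of ZEB2 0.18 and 0.11. The cause of this was not tested.

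**Figure D2:**
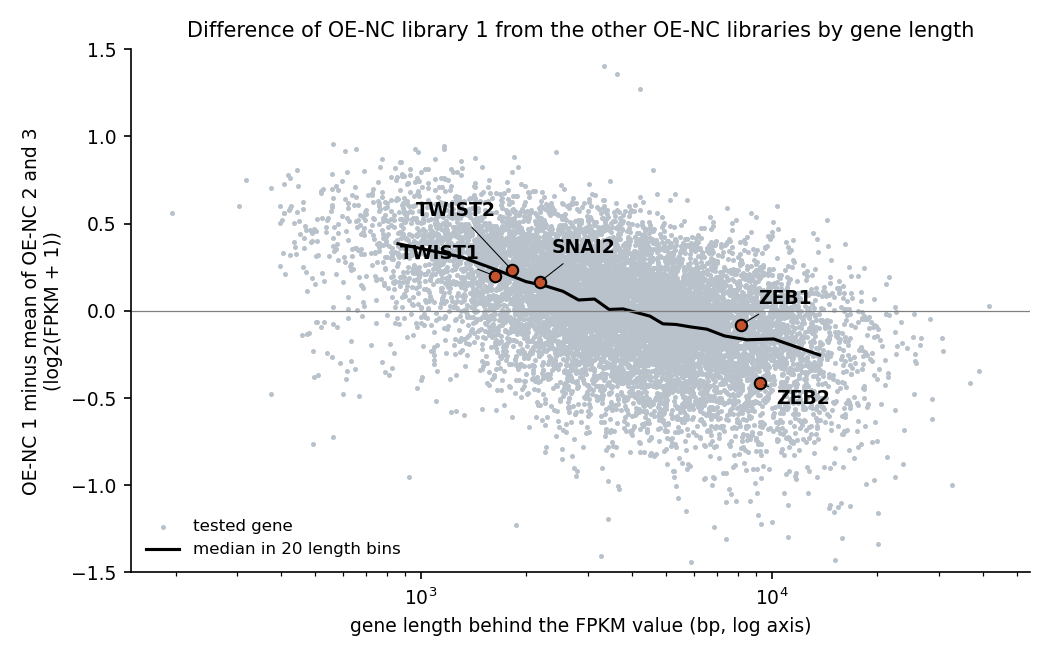
Difference of OE-NC 1 from the mean of OE-NC 2 and OE-NC 3 in log2(FPKM + 1) (vertical axis) against gene length in bp (log axis) for the tested genes, with 3 genes outside the vertical range not drawn; the line joins medians of 20 length bins. TWIST1, TWIST2 and SNAI2 lie close to the line at about 0.2, ZEB1 lies slightly above it at -0.08, and ZEB2 lies below it at -0.42.

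The ZEB balance turned over. In OE-NC ZEB1 was at 0.403 times the FPKM of ZEB2 and in OE-SOX3 at 1.25 times, and the log2 ratio of ZEB1 to ZEB2 went from a range of -1.25 to -0.90 to a range of 0.21 to 0.44. The difference of 1.42 had p = 0.10 in a two-sided exact permutation test, the smallest possible. For SNAI2 against SNAI1 the log2 ratio differed by 0.26, with p = 0.20 in the same exact permutation test. All 3 log2 ratios were taken on log2(FPKM + 1), and this pseudocount exceeds the mean level of SNAI1 in both groups. Without the pseudocount, the ratio of mean FPKM of SNAI2 to SNAI1 moved the other way, from 1172 in OE-NC to 61.9 in OE-SOX3. These 3 ratios were the only ones tested, and none can pass an adjustment at this number of libraries.

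As a set, the genes changed order. By mean FPKM the order in OE-NC was SNAI2 (23.4), TWIST1 (17.4), ZEB2 (10.8), TWIST2 (6.43), ZEB1 (4.35) and SNAI1 (0.020). In OE-SOX3 it was TWIST1 (64.0), SNAI2 (50.9), ZEB1 (12.5), ZEB2 (10), TWIST2 (8.17) and SNAI1 (0.823). No neighbours in either order overlapped between their libraries. The summed level of all 6 was 61.1 to 64.4 FPKM in OE-NC libraries and 145 to 149 FPKM in OE-SOX3 libraries, and TWIST1 made up 26.5% to 29.6% of it in the former and 43.4% to 44.0% in the latter. Among tested genes, TWIST1 lay above 69.5% in OE-NC and above 92.6% in OE-SOX3, and ZEB1 above 31.0% and 63.0%.

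**Figure D3:**
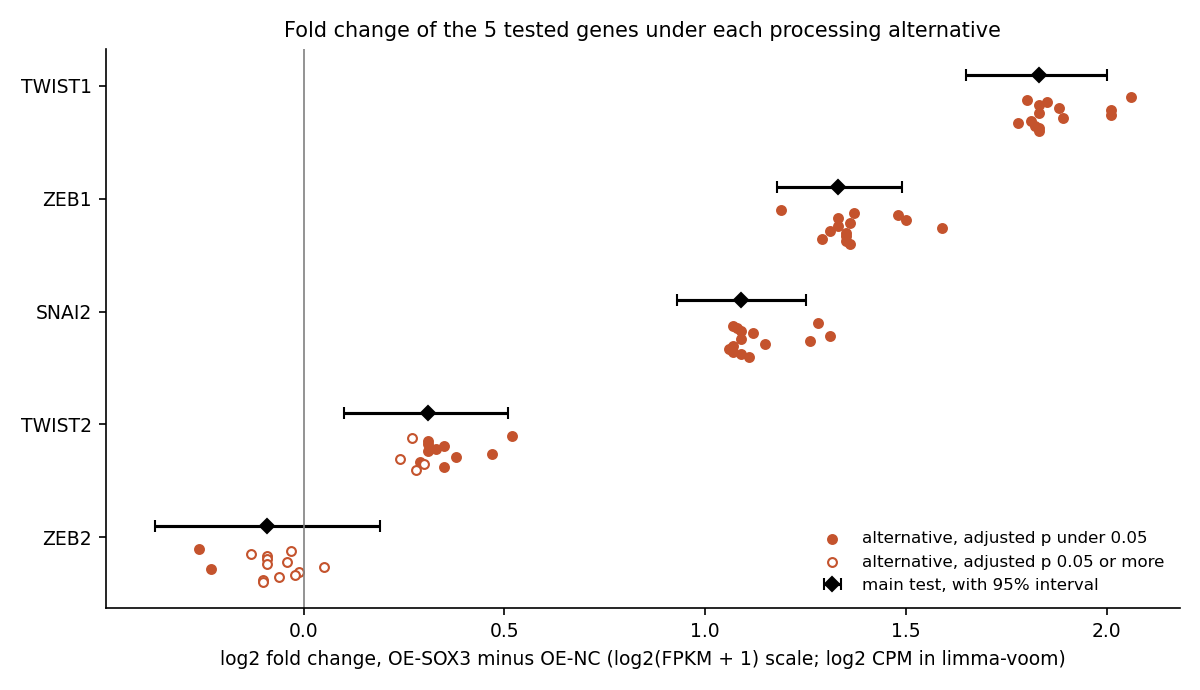
Log2 fold change of the 5 tested genes (horizontal axis, OE-SOX3 minus OE-NC) in the main test (diamonds, 95% interval) and under each processing alternative (circles, filled where the adjusted p was under 0.05). TWIST1, ZEB1 and SNAI2 keep to 1.78 to 2.06, 1.19 to 1.59 and 1.06 to 1.31 in these alternatives, while TWIST2 loses the call in 4 of them and ZEB2 gains it in 2.

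For each tested gene the nearest patterns were found by the root-mean-square distance between log2(FPKM + 1) profiles over the 6 libraries, each centred on its mean. Nearest to TWIST1 were LMOD1 (distance 0.037), SDC2 (0.0558) and MARCKSL1 (0.064). Nearest to SNAI2 were ACTA2 (0.0361), the smooth muscle actin gene, which went from 60.8 to 133 FPKM, then NOL4L (0.0383) and PHLDB3 (0.0386). Nearest to ZEB1 were IGIP (0.0309), BEX4 (0.0352) and STK17B (0.0368). BEX4 went from a mean of 0.206 FPKM to 1.96 FPKM, where ZEB1 went from 4.35 to 12.5 FPKM. The pseudocount of 1 FPKM compresses such low levels, so a near pattern need not be a similar ratio of FPKM. Near TWIST2 lay XYLT2 (0.0345) and CCDC106 (0.0364), and nearest to ZEB2 were TP53I11 (0.0175), ELF4 (0.0211) and SLC25A25 (0.026). SNAI2 and ZEB1 were the closest pair among the 5 at 0.149, and ZEB2 and TWIST1 the farthest at 0.98.

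Epithelial genes, the class that SNAIL and ZEB factors repress, did not move one way. Of 30 listed, 24 were in the table, 12 were tested, 8 rose and 4 fell, where 32.9% and 36.1% of all tested genes rose and fell. Among the rises, CLDN7 and CDS1 had means of 0.247 and 0.316 FPKM in OE-NC. They reached the level for testing only through OE-SOX3 and could not have been counted as falls. DSP, which encodes the desmosome protein desmoplakin, rose from 4.78 ± 0.162 FPKM to 25.8 ± 0.694 FPKM, and JUP, the plakoglobin gene, from 5.37 ± 0.147 FPKM to 11.4 ± 0.552 FPKM (both SD, n = 3). KRT18, a keratin of simple epithelia, fell from 142 ± 6.30 FPKM to 26.5 ± 1.86 FPKM, and CLDN1, a tight junction claudin, from 35 ± 1.51 FPKM to 6.85 ± 0.600 FPKM (both SD, n = 3). The list median was 0.51, and 0.01 with no filter on low values, since 10 of the 24 genes were under 0.5 FPKM in every library. Among those 10 were EPCAM, CRB3 and GRHL2, the last with 0 reads in all 6 libraries (named for their place among the defining epithelial genes, outside the rule). CDH1 was not analysed here.

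Mesenchymal genes were mostly higher. Of 31 listed, 28 were tested, and 23 rose, 3 fell and 2 missed the threshold, where 32.9% of all tested genes rose and 36.1% fell. The median log2 fold change was 0.85. Of those too low to test, MMP3 went from a mean of 0.639 FPKM in OE-NC to 0.0679 FPKM in OE-SOX3. GREM1 went from 0.0324 to 0.019 FPKM, and MMP9 went the other way, from 0.0075 to 0.0227 FPKM. POSTN, COL1A1 and COL3A1, which encode periostin and fibrillar collagen chains, rose by log2 fold changes of 3.24, 2.52 and 1.85. CDH11, a mesenchymal cadherin, rose from 2.98 ± 0.350 FPKM to 15.7 ± 0.788 FPKM (both SD, n = 3; log2 fold change 2.07, limma adjusted p = 2.80e-06). VIM, CDH2 and FN1, textbook markers, were named after their values were seen. The vimentin gene VIM was already at 2973 FPKM in OE-NC and rose to 4219 FPKM, CDH2, the N-cadherin gene, rose from 41.1 to 48.5 FPKM, and FN1, the fibronectin gene, rose from 2202 to 4175 FPKM. FN1 was low in OE-NC 1, at 1255 against 2673 and 2677 FPKM in the other OE-NC libraries. AXL, a receptor tyrosine kinase gene of mesenchymal tumour cells, fell by 0.81 on the log2 scale, the lowest value among the tested genes of the list. The other falls were TNC and THY1 (log2 fold changes of -0.67 and -0.38). S100A4 and TAGLN were the 2 that missed the threshold (-0.26 and -0.18). Fibroblast and theca markers share 5 of their genes with this list, and 5 of 6 tested rose, PDGFRA from 6.43 to 18.6 FPKM and DCN from 23.4 to 37.5 FPKM among them. The 5 that rose are the shared genes, so this count repeats the mesenchymal list. DPT, the other tested marker, did not pass (log2 fold change -0.09). The theca markers CYP17A1 and LHCGR were at most 0.15 and 0.0776 FPKM. The summed level of the fibroblast and theca markers was 124 to 135 FPKM in OE-NC and 318 to 325 FPKM in OE-SOX3. Their part in the TWIST, SNAIL and ZEB values was not tested.

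**Figure D4:**
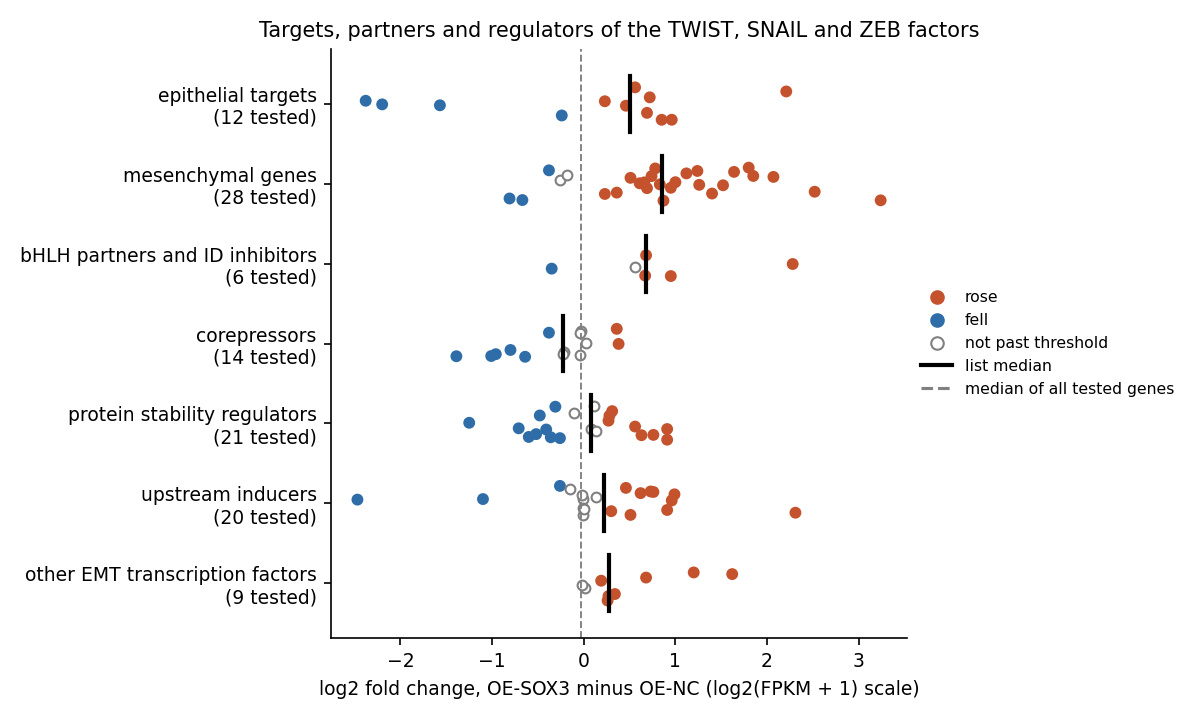
Log2 fold change (horizontal axis, log2(FPKM + 1) scale) of each tested gene in 7 lists of targets, partners and regulators, coloured by whether it rose, fell or did not pass; black bars are list medians and the dashed line is the median of all tested genes, -0.03. Mesenchymal genes lie mostly to the right with a median of 0.85, while epithelial genes split into rises such as DSP and falls such as KRT18 and CLDN1.

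Partners of the TWIST proteins and their inhibitors were measured as a list of 9. The 6 tested held 4 rises, 1 fall and 1 gene that missed the threshold (median 0.68), beside the same 32.9% and 36.1% over all tested genes. TCF4, an E protein gene, rose from 3.91 ± 0.464 FPKM to 8.44 ± 0.418 FPKM, while TCF3, which encodes the E proteins E12 and E47, fell from 16.3 ± 0.414 FPKM to 12.6 ± 0.325 FPKM (both SD, n = 3). The E protein inhibitor genes ID3 and ID2 rose by log2 fold changes of 2.28 and 0.67.

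Corepressors and chromatin enzymes that SNAIL and ZEB factors recruit numbered 14, of which 6 fell, 2 rose and 6 missed the threshold (median -0.23). The share that fell was close to the 36.1% of all tested genes. SUV39H1, a histone H3 lysine 9 methyltransferase gene, fell from 11.2 ± 0.356 FPKM to 3.64 ± 0.111 FPKM, and EZH2, the catalytic subunit of Polycomb repressive complex 2, fell from 11.4 ± 0.143 FPKM to 5.37 ± 0.253 FPKM (both SD, n = 3). AJUBA, a LIM protein gene, fell from 13.8 to 6.34 FPKM and the deacetylase gene HDAC1 from 78.2 to 44.6 FPKM.

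Genes that control the stability of these proteins went both ways, 8 higher, 9 lower and 4 not past of 21 (median 0.08), shares close to the 32.9% and 36.1% of all tested genes. SPSB3, a ubiquitin ligase substrate receptor gene, rose from 9.22 to 18.2 FPKM, and SIAH2, a RING ubiquitin ligase gene, rose from 17.4 to 30.1 FPKM. FBXO45, another substrate receptor gene, fell from 5.38 to 2.90 FPKM and PSMD14, a proteasomal deubiquitinase gene, from 84.7 to 34.7 FPKM.

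Upstream inducers were 10 higher, 3 lower and 7 not past of 20 (median 0.22), where 32.9% of all tested genes rose, 36.1% fell and 69.1% changed. The ligand gene TGFB1 rose from 40.1 ± 1.73 FPKM to 80.4 ± 2.56 FPKM (both SD, n = 3), and TGFB2 rose by a log2 fold change of 2.31. TGFB2 had a mean of 0.312 FPKM in OE-NC, so it reached the level for testing only through OE-SOX3. IL6, a cytokine gene that signals to STAT3, fell from 10.5 to 4.35 FPKM and EGR1, an immediate early zinc finger gene, from 23.5 to 3.42 FPKM.

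Of 9 other transcription factor genes linked to epithelial-mesenchymal transition that were tested, 7 rose, 0 fell and 2 did not pass (median 0.27), beside 32.9% and 36.1% of all tested genes. TBX3, a T-box repressor gene, rose from 18.5 ± 0.713 FPKM to 43.7 ± 0.844 FPKM and KLF8 from 0.812 ± 0.222 FPKM to 1.90 ± 0.240 FPKM (both SD, n = 3). SOX4 rose by a log2 fold change of 1.62. Among the rises, SOX4, KLF8 and SCX had means of 0.417, 0.812 and 0.961 FPKM in OE-NC. They reached the level for testing only through OE-SOX3 and could not have been counted as falls.

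Markers of the cell type and of other cells were read beside these values. Of 12 granulosa markers, 7 were tested, 5 rose and 0 fell, beside 32.9% and 36.1% of all tested genes, the rises including INHBA, GATA4, FST and INHA (log2 fold changes of 2.23, 0.63, 0.69 and 0.95). In OE-NC the means of INHBA, GATA4, FST and INHA were 0.488, 0.349, 0.356 and 0.215 FPKM. They reached the level for testing only through OE-SOX3 and could not have been counted as falls, so the count does not describe granulosa identity. FOXL2, the granulosa identity factor, rose from 3.23 to 4.85 FPKM, while NR5A1 and AMH did not pass (all 3 named outside the rule). Some granulosa markers were too low to test. Of these, CYP19A1, the aromatase gene, went from a mean of 0.273 FPKM in OE-NC to 0.925 FPKM in OE-SOX3. WT1 went from 0.0187 to 0.673 FPKM, HSD17B1 from 0.272 to 0.404 FPKM and AMHR2 from 0.245 to 0 FPKM. Of 8 endothelial markers, CDH5 and EMCN were at or near 0 in every library, PECAM1 fell from 3.54 to 2.48 FPKM and TEK rose from 1.66 to 2.27 FPKM, a call lost under quantile normalization (limma adjusted p = 0.0796); their summed level was 6.67 to 7.92 FPKM in OE-NC and 7.10 to 7.60 FPKM in OE-SOX3. Of the blood cell markers, PTPRC was at most 0.108 FPKM and CD68, which other cells express too, fell from 78.1 to 56.0 FPKM. Of the surface epithelium markers, EPCAM was at most 0.204 FPKM and KRT7, a keratin gene, fell from 118 to 42.2 FPKM. MSLN and MUC16 were too low to test and went the other way, from means of 0.0994 to 0.452 FPKM and of 0.00191 to 0.0256 FPKM.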

How the data were processed

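The authors deposited 1 expression value per gene and library; the header names no unit, and the deposited values were read as FPKM, since 1 step per gene, set by its length, divides them into whole reads. HISAT2, HTSeq, RSEM and hg38 are named without roles or versions, per the submitters' processing notes; the sources used here do not give the annotation, read layout or strand setting. Whole reads and gene lengths in base pairs fitted 100% of 16278 genes above 0 (within 0.02 reads). The smallest solution was taken, so reads with a common divisor are understated. Intervals and floors cover counting error only.

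Genes whose mean reached 1 FPKM in either group were tested on log2(FPKM + 1) by limma-trend over all 6 libraries (limma 3.58.1, R 4.3.3, Python 3.11.15, SciPy 1.17.1). This scale understates changes of low genes. The test and the recovery of reads were checked on simulated data. These data held few changed genes, no length trend and no deviation shared by libraries, so the check does not cover such conditions. Gene positions and exon overlap come from GENCODE 29 (GRCh38). Its exon bases differ from the lengths behind the FPKM values, for ZEB2 25058 against 9265 bp. The overlap shares therefore need not describe the bases that were counted. Libraries with the same number deviated together (correlations of 0.486, 0.243 and 0.250 across genes), although OE-NC 3 correlated as much with OE-SOX3 2 (0.282). The members and lists were chosen with earlier results of these data known. Named genes were the 6 members, the 4 genes of lowest adjusted p among those called in a list, and the 3 nearest patterns; 2 genes that this rule names are not reported here. Alternatives were a pseudocount of 0.1, no filter, another scaling, quantile normalization, limma-voom with TMM factors on recovered reads, removal of the length trend, the replicate number as a block, libraries 2 and 3 averaged, and each library left out.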

Additional observations from a re-analysis of the deposited data

How the results depend on the processing

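TWIST1, ZEB1 and SNAI2 kept their direction and their call in all 14 alternatives. TWIST2 lost its call with libraries 2 and 3 averaged (log2 fold change 0.27, limma adjusted p = 0.106) and without 3 single libraries (range with a library left out 0.24 to 0.38). ZEB2 passed as a fall with the length trend removed (-0.26), ranged from -0.23 to -0.01 with a library left out, and turned to 0.05 with libraries scaled to the same sum, a scaling that also raises values against the pseudocount. SNAI1 went from 0.83 to 1.71 under that scaling and to 4.68 in limma-voom on recovered reads, which adds a far smaller offset than 1 FPKM; the causes of the other moves were not tested. Changed genes numbered 7686 in the main test, 8031 with the replicate number as a block, 5920 with libraries 2 and 3 averaged, and 6557 to 9076 with a library left out, the last without OE-NC 1. The block changed no call of the 5 tested genes. Partners and ID genes changed numbered 8 instead of 5 with no filter, because more were tested, and other transcription factor genes 4 instead of 7 with libraries 2 and 3 averaged. Depth limits SNAI1, with 2 reads over the OE-NC libraries.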
